A study of Vitis vinifera with 36 samples.

Results

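VviMJE (VIT_00s0253g00080) is a grapevine gene annotated as a methyl jasmonate esterase. Its transcript was followed here in ovules and developing seeds of 3 table grape varieties. The gene was taken by name, and the study's annotation tables pair it with 1 probe, 1 of the 26688 probes on a custom 1-colour Agilent array. Expression was measured in Italia (IT) and Red Globe (RG), which are seeded, and in Thompson Seedless (TS), which is seedless. Each variety was sampled at pre-bloom (S1, E-L stage 17), post-bloom (S2, E-L 19 to 25), pea size (S3, E-L 29) and veraison (S4, E-L 35), with 3 replicate arrays for each of the 12 groups. The labels place all vines in a field collection in southern Italy, conventionally managed and without hormone treatment, and the varieties differ in their whole genetic background. By the file headers, however, all 36 arrays were scanned before the seasons that the labels give for this material, and the files do not settle which is right. Autumn Royal, a second seedless variety named in the labels' protocols, was not analysed here, and TS alone stands for the seedless class.

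Jasmonates are lipid-derived plant hormones. Allene oxide cyclase and some 12-oxophytodienoate reductases (OPRs) act in their synthesis. A methyltransferase converts jasmonic acid into methyl jasmonate, and methyl jasmonate esterases hydrolyse the methyl ester back to jasmonic acid. In Arabidopsis, the conjugate of jasmonic acid with isoleucine triggers the removal of JAZ proteins, which repress jasmonate-responsive genes, and jasmonates are known for roles in defence, wounding, senescence and reproductive development. Stenospermocarpy, the form of seedlessness of TS, is an early arrest of the seed after fertilisation, and the berry keeps only seed traces.

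The level of VviMJE is given as a log2 value relative to the 75th percentile of its own array, so that 0 is a probe at that percentile and 1 unit is a doubling. The probe has 1 spot per array. It was well above background on 36 of 36 arrays and saturated on 0, with processed signals from 69.62 to 119767. Arrays differed in brightness: the 75th percentile of the processed signal ranged from 100 to 1360 over the IT arrays, from 289 to 760 over the RG arrays and from 282 to 841 over the TS arrays, and between 38.7% and 90.1% of probes were well above background. The dimmest was the third IT S1 array. Replicates of a group correlated at r = 0.855 to 0.991. RG and TS arrays shared 7 slides and the IT arrays occupied 5 others. The IT arrays were also scanned on other days than the RG and TS arrays. For every comparison with IT, the slide, the scan day and the variety therefore cannot be told apart. The labels do not say whether replicates came from separate vines, and p-values then measure only the spread between these arrays.

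VviMJE was at its highest at veraison in both seeded varieties and at the lowest of its 4 stage means at veraison in the seedless one. In IT, the 3 S4 arrays gave log2 levels of 7.12, 6.99 and 8.26, a mean of 7.46 ± 0.70 (SD, n = 3). In RG, the S4 arrays gave 5.55, 5.69 and 7.0, with a mean of 6.08 ± 0.80 (SD, n = 3). In TS, they gave -1.07, -0.65 and -1.26, with a mean of -0.99 ± 0.31 (SD, n = 3). Every seeded array at S4 lay far above every seedless array, and the third array was the highest in both IT and RG. On a linear scale, the mean S4 level was 176 times the array's 75th percentile in IT (127 to 307), 67.7 times in RG (46.8 to 128) and 0.502 times in TS (0.416 to 0.637). The signal before any scaling showed the same separation. The IT arrays read 32974, 48670.5 and 119767, the RG arrays 17720, 15641.5 and 36963, and the TS arrays 135, 189 and 126.

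**Figure D1:**
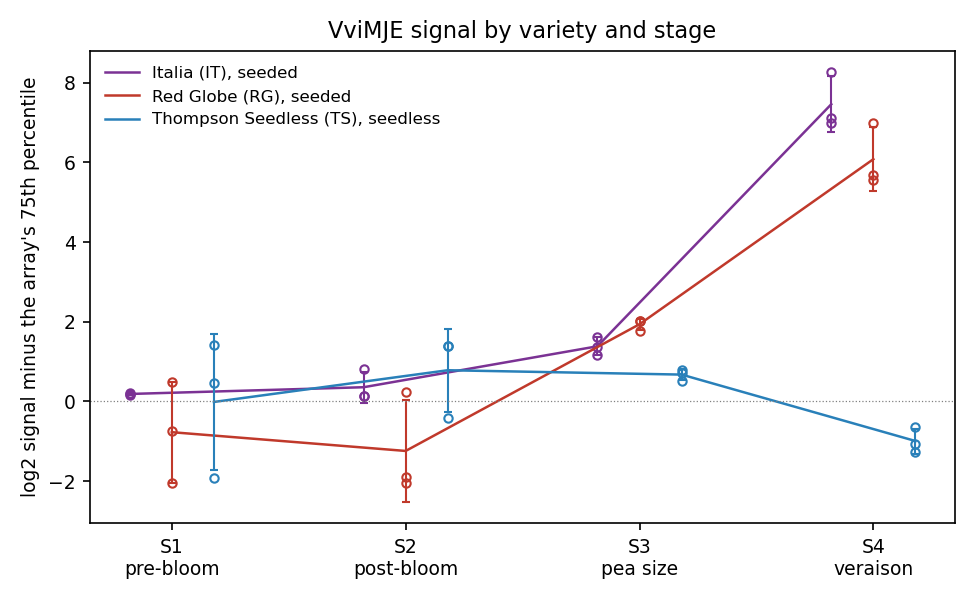
VviMJE signal at the 4 stages (horizontal axis) in IT, RG and TS, as log2 signal minus the 75th percentile of the array (vertical axis). Open circles are arrays, lines join the group means, bars are 1 SD (n = 3), and the dotted line at 0 is the 75th percentile; at S4 the 6 seeded arrays lie between 5.55 and 8.26 and the 3 TS arrays between -1.26 and -0.65.

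The first question was whether VviMJE differed between seeded and seedless varieties at veraison. The study's choice of VviMJE drew on its signal at every stage, so the S4 tests are not fully independent of that choice. RG exceeded TS by 7.07 ± 0.67 on the log2 scale (difference ± SE), 135-fold, with an adjusted p of 1.14e-08 in limma after Benjamini-Hochberg adjustment over 23068 probes. Probes were called at an adjusted p under 0.05 with a log2 difference over 1 in either direction. In this contrast 16.9% of the probes tested were called, 6.93% higher and 9.96% lower in RG, and VviMJE had the 15th largest rise. IT exceeded TS by 8.45 ± 0.67, 350.4-fold, with an adjusted p of 5.14e-10, in a contrast where 29.2% of probes were called, 15.9% higher and 13.3% lower in IT. The exact two-sided permutation test of these 2 differences gave p = 0.1 for each, the smallest that 3 arrays against 3 allow. Between the seeded varieties, RG was 2.60-fold lower than IT, a difference of -1.38 ± 0.67 with overlapping arrays and an adjusted p of 0.111, so this difference did not pass the test in a contrast that called 29.3% of probes. Without the third RG S4 array it was -1.84 and just passed (adjusted p = 0.0493).

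The tissue markers were read at veraison beside VviMJE. The summed level of 4 measured ovule and seed markers, on a linear scale where 1 is the array's 75th percentile, was 75.7 to 543 on the IT arrays, 55.5 to 72.9 on those of RG and 1.8 to 6.17 on those of TS. Of these 4, RG exceeded TS in 1, VviAGL11, which is also the seedlessness gene that the study used as its bait, in a contrast with 6.93% of all probes higher. IT exceeded TS in 2, VviAGL11 and the storage protein 11S globulin, with 15.9% of all probes higher. 11S globulin was 9.56 log2 units higher in IT than in TS (adjusted p = 6.63e-06), whereas its difference between RG and TS was -0.17 (adjusted p = 0.98). EDE1, an endosperm gene, differed by 0.20 between RG and TS (adjusted p = 0.904) and by 0.73 between IT and TS (adjusted p = 0.275). Inner no outer, an integument gene, was not well above background on any RG or TS array at S4. The summed level of 5 markers of berry flesh, skin and green tissue was 3.89 to 4.51 in IT, 3.66 to 10.4 in RG and 7.63 to 38.3 in TS. Of these, 3 were lower in RG than in TS (thaumatin SCUTL1, invertase GIN1 and RuBisCO activase) and 0 higher. In that contrast 9.96% of all probes were lower and 6.93% higher. In log2 units, IT against TS had 2 higher, osmotin (1.55) and thaumatin (4.17), and 2 lower, GIN1 (-2.70) and RuBisCO activase (-5.66). There 15.9% of all probes were higher and 13.3% lower. In bulk tissue, fewer cells that express a gene and less RNA per cell cannot be told apart, and the part of tissue composition in the VviMJE difference was not tested.

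From post-bloom to veraison VviMJE rose in both seeded varieties. The S2 levels were -1.89, -2.06 and 0.22 in RG and 0.13, 0.80 and 0.14 in IT, all below the S4 arrays of the same variety. The rise was 7.32 ± 0.67 in RG, 160.2-fold (adjusted p = 1.74e-09), and 7.10 ± 0.67 in IT, 137.5-fold (adjusted p = 5.71e-09). Many probes moved over this interval: 30.0% were called in RG (13.1% higher, 16.9% lower) and 29.8% in IT (12.9% higher, 16.9% lower). With no scaling between arrays the split shifted to 905 probes higher and 3401 lower for RG, and 590 higher and 3313 lower for IT, and VviMJE stayed called higher. It had the 70th largest rise in RG and the 41st in IT. In TS, the S2 arrays gave 1.39, 1.38 and -0.42 and did not overlap the S4 arrays. VviMJE was 3.43-fold lower at S4 than at S2 there, a change of -1.78 ± 0.67 log2 units. That fall passed narrowly (adjusted p = 0.0459), in a contrast that called 25.9% of probes (11.9% higher, 13.9% lower, and 353 against 4984 probes with no scaling). Leaving out 1 array at a time removed this call in 5 of 6 cases, with changes of -2.38 to -1.47.

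The change from S2 to S4 was then compared between varieties. It was 9.10 ± 0.95 log2 units larger in RG than in TS (adjusted p = 4.29e-07) and 8.88 ± 0.95 larger in IT than in TS (adjusted p = 3.03e-07). These contrasts called 10.6% and 16.0% of probes, 4.70% and 6.82% in the direction of VviMJE, whose difference ranked 18th in the first and 12th in the second. With no scaling, 525 probes were called higher and 135 lower in the first, and 575 and 355 in the second. RG and IT differed from each other in this change by 0.22 ± 0.95 (adjusted p = 0.922), where 18.5% of probes were called. The comparisons of RG and of IT with TS share the TS arrays.

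**Figure D2:**
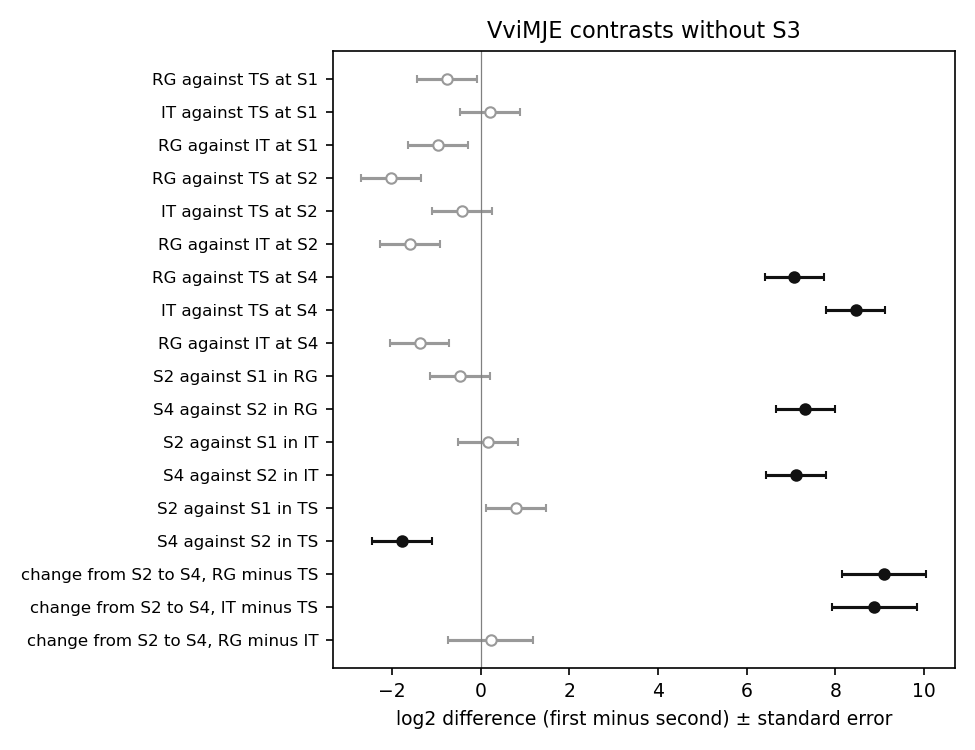
Log2 difference of VviMJE in each tested contrast (horizontal axis, first group minus second) with its standard error as a bar. Filled points passed an adjusted p under 0.05 with a log2 difference over 1, and open points did not; the 6 filled points at or above 7.07 are the S4 contrasts of RG and IT with TS, the rise to S4 in RG and IT, and the 2 differences of that rise from TS.

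At the first 2 stages no contrast between varieties passed the test. Each of the 3 at S2 passed with array weights, a fit that did not converge. For IT against TS it was the only alternative that passed. At S1 the IT arrays were tightly grouped at 0.19, 0.17 and 0.20, although their unscaled signals ran from 116 to 1531. The RG arrays spread over -2.05, -0.75 and 0.49, and the TS arrays over -1.92, 1.42 and 0.46, so both ranges took in the IT values. RG minus TS was -0.76 (adjusted p = 0.708), IT minus TS was 0.20 (adjusted p = 0.859) and RG minus IT was -0.96 (adjusted p = 0.355), each ± 0.67. The shares of probes called were 5.61%, 12.1% and 8.49%. At S2, RG was 4.07-fold lower than TS, a difference of -2.03 ± 0.67 with overlapping arrays (adjusted p = 0.0811, with 4.96% of probes called). With scan day as a random block the same difference passed (adjusted p = 0.0299). The third array carried this overlap in both varieties. Without the third RG S2 array the difference was -2.76 and passed (adjusted p = 0.0118), and without the third TS S2 array it was -2.63 and passed as well (adjusted p = 0.0332). IT minus TS at S2 was -0.43 (adjusted p = 0.691, 11.2% of probes called), and RG minus IT was -1.60 (adjusted p = 0.0921, 14.1% called), which became -2.33 and passed without the third RG S2 array (adjusted p = 0.0145).

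Between S1 and S2, the change of VviMJE did not pass the test in any of the 3 varieties. The difference was -0.47 in RG (adjusted p = 0.906), 0.17 in IT (adjusted p = 0.939) and 0.80 in TS (adjusted p = 0.678), each ± 0.67. Its sign turned without 1 array in each variety, with ranges of -1.21 to 0.16 in RG, -0.05 to 0.28 in IT and -0.16 to 1.51 in TS. The share of all probes called over this interval was 0.815% in RG, 8.51% in IT and 3.37% in TS. The exact permutation p over the 3 variety contrasts at S1 and the 3 at S2 was 0.2 or more for each.

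At pea size, the levels are given without a test, because the study picked VviMJE partly on its calls at this stage. The S3 levels were 1.77, 2.01 and 2.03 on the RG arrays. Those of IT were 1.61, 1.37 and 1.17, and those of TS were 0.51, 0.72 and 0.79. The 3 varieties did not overlap and stood in the order RG, IT, TS, with means of 1.94 ± 0.14, 1.38 ± 0.22 and 0.67 ± 0.15 (SD, n = 3). RG was 2.4-fold and IT 1.64-fold above TS, and RG was 1.47-fold above IT. The order of the seeded varieties was thus the opposite of that of their S4 means, but the S4 difference between them did not pass the test. With no scaling, the RG and IT arrays at S3 overlapped. Slide and variety cannot be told apart in this comparison. From S3 to S4 the level rose 17.7-fold in RG and 67.4-fold in IT, while in TS it was 3.18-fold lower at S4. From S2 to S3 it was 9.07-fold higher in RG and 2.04-fold higher in IT, and in TS the S2 and S3 arrays overlapped.

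Ordered by mean level, the 12 groups ran IT S4, RG S4, RG S3, IT S3, TS S2, TS S3, IT S2, IT S1, TS S1, RG S1, TS S4 and RG S2. With no scaling, 4 groups stood elsewhere: IT S1 and TS S1 changed places, as did TS S4 and RG S2. Of the 11 neighbouring pairs in this order, 9 had overlapping arrays. The other 2 were RG S4 over RG S3, a gap of 4.14 log2 units, and RG S3 over IT S3, a gap of 0.55. The 5 groups from TS S2 to TS S1 had means between -0.01 and 0.78, and TS S1 (± 1.72), RG S1 (± 1.27), RG S2 (± 1.27) and TS S2 (± 1.04) were the most variable groups (SD, n = 3).

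RG and TS arrays of the same stage shared a slide in 10 cases, which gives a comparison within slides. At S4 the 3 within-slide differences were 6.61, 6.34 and 8.26 log2 units, beside a pooled 7.07 ± 0.67. At S3 the 2 pairs gave 1.27 and 1.22. At S2 the 2 pairs went opposite ways, -3.44 and 0.64, and at S1 the 3 pairs gave -0.13, -2.17 and 0.03. In the first of these S1 pairs, both arrays were low, at -2.05 and -1.92.

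**Figure D3:**
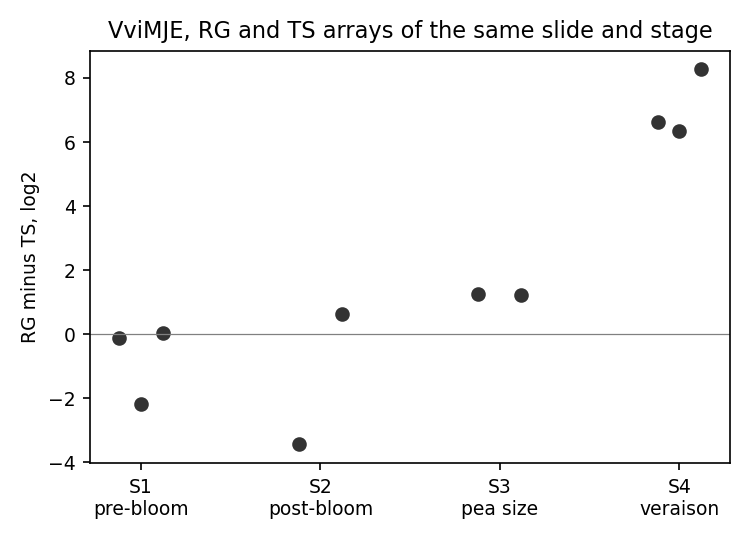
RG minus TS in VviMJE log2 signal (vertical axis) for the 10 pairs of arrays that shared a slide and a stage (horizontal axis). The S4 pairs lie at 6.34 to 8.26 and the S3 pairs at 1.22 and 1.27, whereas S1 and S2 pairs fall on both sides of 0.

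The array carries 3 further probes annotated as methyl jasmonate esterases, for VIT_00s0253g00090, VIT_00s0253g00110 and a gene known only by its earlier name GSVIVT01005063001e5. The prefix 00 in the current names marks genes not assigned to a chromosome, and coordinates were not given in the sources used here. Over the 36 arrays their log2 signals followed VviMJE with Pearson r = 0.9945, 0.9956 and 0.9935 respectively. Probe sequences were not used here, and whether the probes read separate transcripts or share near-identical copies is uncertain.

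All 3 of these esterase probes were higher in seeded than in seedless samples at S4, where 6.93% of all probes were higher in RG and 15.9% in IT. RG exceeded TS by 6.57 for VIT_00s0253g00090 (adjusted p = 4.42e-08), by 6.23 for VIT_00s0253g00110 (1.18e-07) and by 6.86 for GSVIVT01005063001e5 (1.1e-07). IT exceeded TS by 8.0, 7.97 and 8.46 in the same order. From S2 to S4 the rise in RG was 7.19, 6.85 and 7.86, and the rise in IT was 7.41, 7.06 and 8.27. Their changes in TS, -1.13, -1.15 and -1.21 (SE 0.68 to 0.74), did not pass the test (adjusted p = 0.224, 0.219 and 0.242). The fall of VviMJE, -1.78 ± 0.67, passed only narrowly, and its difference from these probes was not tested. The 3 probes were called in none of the 6 variety contrasts at S1 and S2, which called 4.96% to 14.1% of all probes. RG minus IT at S4 passed for VIT_00s0253g00110 alone (-1.74, adjusted p = 0.0484), with -1.43 and -1.60 for VIT_00s0253g00090 and GSVIVT01005063001e5.

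**Figure D4:**
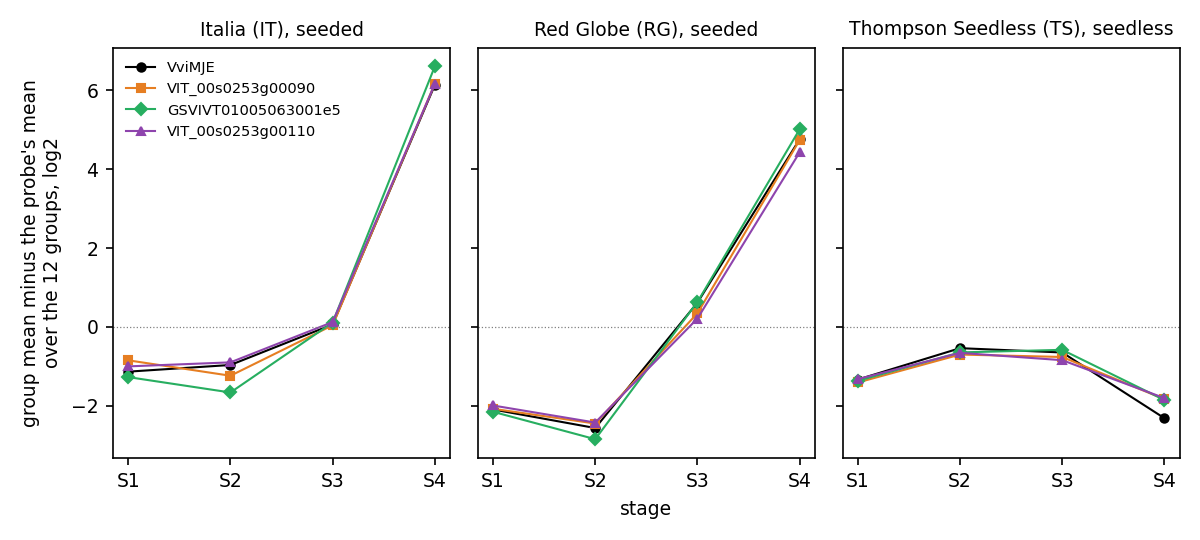
Group means of VviMJE and the 3 other methyl jasmonate esterase probes at the 4 stages (horizontal axis) in IT, RG and TS, each centred on its own mean over the 12 groups (vertical axis, log2). The 4 lines rise together from S2 to S4 in IT and RG and stay below 0 in TS, where the differences from S2 to S4 are -1.78 for VviMJE and -1.13 to -1.21 for the others.

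Genes with jasmonate-related annotations were read from 19 probes, 12 for OPRs, 1 for allene oxide cyclase and 6 for JAZ genes. Which of the OPRs act in jasmonate synthesis was not tested. The allene oxide cyclase and JAZ genes came from lists of differentially expressed genes drawn from these samples, so their counts are not independent evidence. Of the 19, 1 was higher and 4 lower in RG than in TS at S4 (6.93% and 9.96% of all probes), with a median of -0.32 against -0.0466 over all probes tested. In IT against TS, 5 were higher and 2 lower (15.9% and 13.3% of all probes), with a median of 1.44 against 0.164. From S2 to S4, 2 fell in RG, 2 rose and 1 fell in IT, and 2 fell in TS, where 30.0%, 29.8% and 25.9% of all probes were called. The counts depended on scaling. With no scaling between arrays, 0 of the 19 were called in RG against TS at S4, 4 of the 7 calls remained in IT against TS, and 0 rose and 1 fell from S2 to S4 in IT. With quantile normalization 7 rose and 1 fell in IT. In the main fit 0 of the 19 rose from S2 to S4 in RG, so the list holds no probe that rose in both seeded varieties. Over all probes 13.1% were called higher in RG and 12.9% in IT. The share of all probes that rose in both was not counted.

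Allene oxide cyclase (VIT_14s0083g00110), which acts in jasmonate synthesis, fell in RG by 4.57 from S2 to S4 (adjusted p = 1.71e-05). RG minus TS at S4 was -2.98 (adjusted p = 0.00436), although only 1 of the 3 RG S4 arrays was well above background. In IT against TS at S4 its difference was 0.42 (adjusted p = 0.692). OPR VIT_18s0041g02040 exceeded TS at S4 in both seeded varieties, with differences of 1.49 for RG (adjusted p = 0.0124) and 2.59 for IT (adjusted p = 3.35e-05), and it fell by 1.96 from S2 to S4 in TS (adjusted p = 0.000765), where 1 of 3 S4 arrays was well above background. VIT_18s0122g01170, annotated as OPR 2, was lower in RG than in TS at S4 (-1.85, adjusted p = 8.35e-05). It was also lower at S2 (-2.56, adjusted p = 5.08e-06). In IT it rose from S2 to S4 by 1.78 (adjusted p = 6.02e-05), and with no scaling the change was 1.25 and did not pass (adjusted p = 0.211). VIT_18s0041g02010 and VIT_18s0041g02070, both annotated as OPR 1, were 5.43 and 5.64 higher in IT than in TS at S4 (adjusted p = 0.00601 and 0.00453). For each, 1 of 3 TS arrays was well above background. VIT_18s0041g02270, annotated as OPR 2, was called higher in IT than in TS (adjusted p = 0.0396, 0.0821 with no scaling). It was not well above background on any TS array at S4. VIT_11s0016g01230, annotated as OPR 3, was lower in IT than in TS (-1.46, adjusted p = 0.00805), a call lost with no scaling (-1.30, adjusted p = 0.265).

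The JAZ repressors moved in different directions. VvJAZ7 was lower than in TS at S4 in both seeded varieties, with differences of -4.89 for IT (adjusted p = 0.00163) and -3.19 for RG (adjusted p = 0.0497, and 0.0867 with quantile normalization). Its S4 levels were 1.28 to 2.61 in TS, -2.18 to -0.77 in RG and -3.44 to -2.89 in IT, with no overlap. VvJAZ11 fell in RG from S2 to S4 by 2.59 (adjusted p = 1.43e-06) and differed from TS at S4 by -1.64 (adjusted p = 0.00121), whereas its IT difference from TS was 0.25 (adjusted p = 0.609). VvJAZ5 was 2.54 higher in IT than in TS (adjusted p = 0.0434), a call lost with no scaling (adjusted p = 0.0804) and with quantile normalization (adjusted p = 0.0782). VvJAZ2 fell by 3.56 in TS from S2 to S4 (adjusted p = 0.01). VvJAZ3 and VvJAZ8 passed in none of the S4 contrasts with TS. At S1 and S2, 0 of the 19 were higher than in TS in either seeded variety. At S1, 1 was lower in RG and 1 in IT, where 5.61% and 12.1% of all probes were called in either direction. At S2, 2 were lower in RG and 0 in IT, where 4.96% and 11.2% were called. Between the seeded varieties at S4, 1 was higher and 9 were lower in RG than in IT. Of all 23068 probes tested, 2736 were higher and 4021 lower, 29.3% in either direction. With no scaling 0 of the 19 were higher and 7 lower, beside 1017 and 1669 of all probes.

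**Figure D5:**
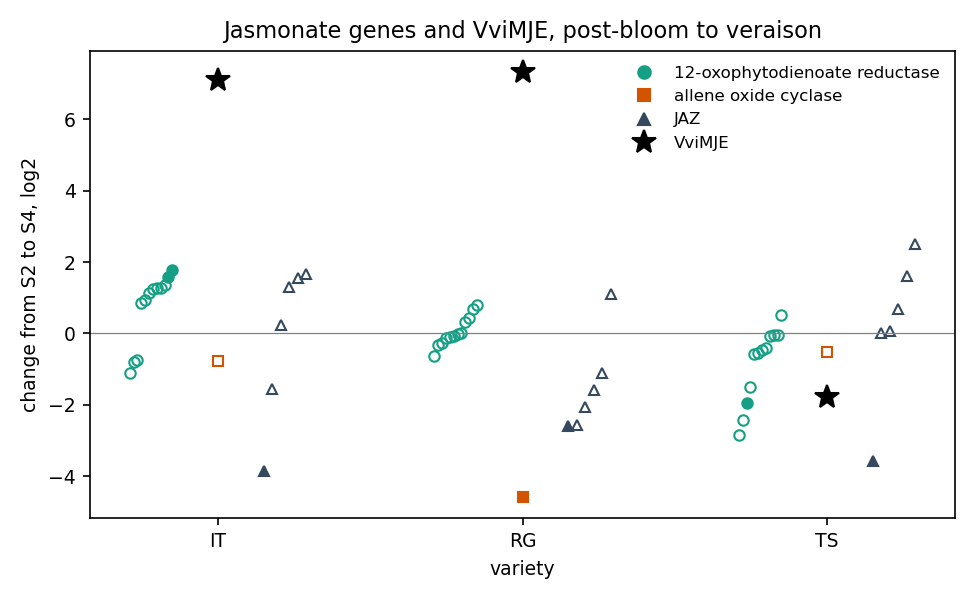
Log2 change from S2 to S4 (vertical axis) of the 19 jasmonate probes and VviMJE in IT, RG and TS (horizontal axis), with a marker for each gene group. Filled markers passed an adjusted p under 0.05 with a change over 1 log2 unit; VviMJE lies at 7.10 in IT and 7.32 in RG, above every probe of the list, and at -1.78 in TS.

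The study used VviAGL11, the MADS-box gene at the main seedlessness locus, as the bait for co-expression. That search covered the arrays used here, those of Autumn Royal, and outside expression collections. VviMJE, VviGT3 and VviIFR were picked as candidate VviAGL11 targets partly on it, and partly on mean expression in these tissues and on S3 calls. The paper also took into account lower expression in seedless than in seeded varieties, as reported in an earlier study of seed development. The S4 contrasts of VviMJE are therefore not fully independent of its choice. The study then tested the candidates by in situ hybridisation, VviAGL11 overexpression and reporter assays, which the values here do not address. Side by side, RG minus TS at S4 was 7.07 for VviMJE, 4.16 for VviAGL11 (adjusted p = 5.77e-08), 3.53 for VviGT3 (adjusted p = 8.76e-05), an auxin glucosyltransferase, and -1.52 for VviIFR (adjusted p = 0.00293), an isoflavone reductase. IT minus TS was 8.45, 3.75 (adjusted p = 1.98e-07), 1.89 (adjusted p = 0.0174) and 0.71 (adjusted p = 0.13). As a description over the 36 arrays, which share stages and slides, the log2 signal of VviMJE correlated with that of VviAGL11 at r = 0.618 (0.665 over the 27 arrays without S3), with VviGT3 at 0.603 and with VviIFR at 0.0088.

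The probes most like VviMJE, esterase probes aside, were ranked by Pearson r of log2 signal over the 36 arrays among 23064 probes, whose median r was 0.0395. The first was VIT_09s0002g00580, annotated as a GDSL lipase (r = 0.902), the only probe over 0.9. Its S4 level was 7.79 in IT, 3.98 in RG and -1.07 in TS. A nucleobase-ascorbate transporter, VIT_03s0091g01050, followed (r = 0.894), with S4 levels of 3.47, 3.61 and -1.90 in the same order. The next were GSVIVT01011106001, which has no annotation in the tables used (0.878), VIT_03s0063g01690, a flavonoid 3-monooxygenase (0.873), and VIT_09s0002g06970, a plastid fatty acid desaturase (0.867). The ranking depended on the measure: 3 of these 5 were among the first 5 over the 24 RG and TS arrays, and 0 were with Spearman's rank correlation or on a linear scale.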

How the data were processed

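Total RNA from ovules and seeds was labelled with Cy3 and hybridised to 36 arrays. The authors deposited the Feature Extraction output (version 10.7.1.1 in the file headers) with a processed intensity per spot, background-corrected within the array, and a matrix of 22683 probes, in which 99.96% of values lay within 0.1% of the unscaled mean of a probe's spots. The 75th percentile normalization of the Methods was not in the deposited intensity values and was applied here. Intensities of unflagged spots were averaged per probe, taken to log2 with no pseudocount and centred on the array's 75th percentile, and 26564 of 26688 probes had a value on every array. The authors' V1 annotation named the probes; the reference table matched 0 of them. Precision is limited by the number of arrays.

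Group means over all 36 arrays were fitted with limma 3.58.1 (R 4.3.3), with Benjamini-Hochberg adjustment over the 23068 probes that the scanner marked as well above background on every array of 1 or more groups. Single values were also compared by exact permutation (SciPy 1.17.1), and the fit was tested on simulated data. VviMJE and the lists were chosen with earlier results of these data known. The genes named are VviMJE, all other esterase probes, jasmonate genes from the study's tables by annotation, the bait with its other candidates, and the 5 probes with the highest Pearson r. Alternatives covered scaling, background, dim probes, source of values, samples fitted, array weights, slide, scan day, replicate number, single arrays and the methods' t-test. The authors' comparison columns (fold changes, p-values) were not used. Replicate numbers, which the labels tie to no vine or batch, were not used as pairs.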

Additional observations from a re-analysis of the deposited data

Results flagged for a closer look

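The change of VviMJE from S2 to S4 differed between varieties by a test of the difference itself. It was 9.10 log2 units larger in RG than in TS and 8.88 larger in IT than in TS, and RG and IT arrays rose while TS arrays were lower at S4. The 3 other esterase probes met the same criterion in limma. In this direction 4.70% of all probes were called for RG against TS and 6.82% for IT against TS. The RG change exceeded the TS change by 8.32 for VIT_00s0253g00090, by 9.07 for GSVIVT01005063001e5 and by 8.0 for VIT_00s0253g00110, and the IT change exceeded it by 8.54, 9.48 and 8.21. These results share the TS arrays and may share transcripts between probes.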

How the results depend on the processing

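The calls of VviMJE in RG and IT against TS at S4, in the rise from S2 to S4 in RG and IT, and in the difference of that rise from TS held under every alternative run, with log2 values of 6.42 to 7.20, 7.68 to 8.61, 6.63 to 7.56, 6.36 to 7.12, 8.27 to 9.78 and 8.08 to 9.58. The fall in TS lost its call with the methods' t-test after Benjamini-Hochberg adjustment (-1.78, adjusted p = 0.15), no filter on dim probes (-1.78, 0.0536), normexp background (-1.43, 0.0749), only the groups compared (-1.78, 0.0774) and slide as a fixed term (-1.79, 0.12). Array weights (not converged) gave -3.22 for RG minus TS, -1.18 for IT minus TS and -2.04 for RG minus IT at S2, -1.43 for RG minus IT at S4 and -1.47 for S2 against S1 in RG, all past the threshold, and turned IT minus TS at S1 (-0.32) and S2 against S1 in IT (-0.0072). Scan day as a random block brought RG minus TS at S2 past it (-2.03, 0.0299), and slide as a random block turned RG minus IT in the change to S4 (-0.14). With no scaling, IT minus TS at S1 was -0.17, the S3 differences were 1.63 (RG minus TS), 1.26 (IT minus TS) and 0.37 (RG minus IT), and 1 pair of neighbours in the order of levels did not overlap, against 2. The cause of these shifts was not tested.

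Leaving out 1 array at a time gave -1.71 to -0.04 for RG minus TS, -0.75 to 0.92 for IT minus TS and -1.59 to -0.32 for RG minus IT at S1. At S2 these ran from -2.76 to -1.62, -1.03 to -0.12 and -2.33 to -1.19, and at S4 from 6.61 to 7.34, 8.05 to 8.69 and -1.84 to -0.98. S2 against S1 ran from -1.21 to 0.16 in RG, -0.054 to 0.28 in IT and -0.16 to 1.51 in TS. S4 against S2 ran from 6.86 to 8.06, 6.70 to 7.34 and -2.38 to -1.47. The change differed by 8.64 to 9.83 (RG minus TS), 8.48 to 9.48 (IT minus TS) and -0.24 to 0.95 (RG minus IT).

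Deviations of arrays with the same replicate number correlated at a mean r of 0.115 (-0.517 to 0.804), against -0.0568 for different numbers, but not every pair was over 0.1. For different groups on the same slide the mean r was 0.318. With slide or scan day as a random block, the fitted correlation within a block was 0.422 or 0.323. The main fit treated arrays as independent. In IT a number is also a scan day, and 9 of 10 same-slide RG and TS pairs share one. With replicate number as a block, RG minus TS at S4 was 7.07 (adjusted p = 1.12e-08), and no VviMJE call changed. At S2 it moved calls from 2595 to 4166 for IT against TS and from 3246 to 4888 for RG against IT.

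Counts of probes called (as reported in parentheses) were 955 to 5874 for RG against TS at S4 (3895), 2381 to 11357 for IT against TS (6728), 2627 to 8724 for S4 against S2 in RG (6930), 2884 to 9114 in IT (6874), 2097 to 8887 in TS (5966), and 0 to 5022 for S2 against S1 in RG (188); the 0 was limma on those groups alone, with 1346 at an unadjusted p under 0.05. For RG against TS they were 4 to 2320 at S1 (1294) and 83 to 4426 at S2 (1144), for IT against TS 9 to 5780 (2792) and 267 to 9121 (2595), and for RG against IT 13 to 4943 (1958), 244 to 9802 (3246) and (S4) 2395 to 11352 (6757). S2 against S1 gave 267 to 4454 in IT (1963) and 13 to 5948 in TS (777). The change gave 660 to 6254 for RG against TS (2447), 930 to 8836 for IT against TS (3690) and 1200 to 9088 for RG against IT (4272).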
